A study of Homo sapiens with 17 samples.

Results

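The genes described here are 10 protein kinases of mitotic entry and the spindle checkpoint, PLK1, AURKA, AURKB, BUB1, BUB1B, TTK, NEK2, CDK1, WEE1 and PKMYT1, taken by symbol from the 25548 gene symbols measured. All 10 passed the filter on low values, a mean of at least 1 FPKM over all libraries, which left 12015 genes, and the lowest member mean was 36.2 FPKM. FPKM counts fragments per kilobase of transcript, scaled to the mapped fragments of the library, so levels can be set side by side between genes. RNA came from Jurkat cells, a leukaemic human T cell line kept in continuous culture. The cells received ILT3.Fc, a soluble fusion of the outer domain of ILT3, an inhibitory receptor of antigen-presenting cells, to an antibody Fc portion, and the series set out to find the regulator behind the response. Untreated cells (0 µg/ml) and cells given 12.5 or 25 µg/ml were harvested after 6, 12 and 24 h. Each group had 2 libraries, except the untreated 12 h group with 1, for 17 in all. A second untreated 12 h library was not analysed here. No Fc protein without ILT3 is named among the groups, so the untreated cells are the only controls. The labels call the second library of a group a duplicate and do not tie it to a separate culture, so the p-values measure the spread between these libraries, which may be technical.

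Mitotic kinases act in relays. CDK1 bound to a B-type cyclin starts mitosis once the inhibitory phosphates placed on it by WEE1 and PKMYT1 are removed, and PLK1, itself switched on by Aurora A (AURKA) with the cofactor Bora, speeds that step. Aurora A and NEK2 work on centrosomes and spindle poles, Aurora B (AURKB) corrects faulty attachments of chromosomes to the spindle, and TTK, BUB1 and BUBR1 (encoded by BUB1B) hold back anaphase until every chromosome is attached. In dividing cells most of these messages are made in G2 and mitosis under MuvB complexes with B-MYB and FOXM1, which bind the CHR motif, and under NF-Y, which binds CCAAT.

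The DNA just upstream of these genes is shown for 4 members. They were chosen for the CHR letters TTTGAA (PLK1, BUB1B, CDK1) or a pair of CCAAT boxes on the gene's own strand (NEK2). The RefSeq table, of build GRCh38.p14, held a window for 6 of the 10 members, PLK1, AURKB, BUB1, BUB1B, NEK2 and CDK1, and none was matched for AURKA, TTK, WEE1 and PKMYT1. Each window ran from 250 bases before the gene start to 50 bases after it, and the 250 upstream bases are printed on the gene's strand, 5′ to 3′, with motif matches in capitals. The PLK1 stretch is chr16:23678639-23678888 on the plus strand, that of BUB1B is chr15:40160819-40161068 on the plus strand, that of CDK1 is chr10:60778081-60778330 on the plus strand, and that of NEK2 is chr1:211675622-211675871 on the minus strand.
PLK1: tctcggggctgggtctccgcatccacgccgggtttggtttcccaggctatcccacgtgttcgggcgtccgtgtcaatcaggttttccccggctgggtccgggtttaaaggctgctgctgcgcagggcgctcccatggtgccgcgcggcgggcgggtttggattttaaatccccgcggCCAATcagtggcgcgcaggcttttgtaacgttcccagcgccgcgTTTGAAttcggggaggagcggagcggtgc
BUB1B: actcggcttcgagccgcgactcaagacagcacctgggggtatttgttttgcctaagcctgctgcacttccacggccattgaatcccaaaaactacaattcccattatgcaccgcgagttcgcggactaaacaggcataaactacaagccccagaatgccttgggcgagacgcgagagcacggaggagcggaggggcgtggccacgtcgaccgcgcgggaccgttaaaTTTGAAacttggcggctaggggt
CDK1: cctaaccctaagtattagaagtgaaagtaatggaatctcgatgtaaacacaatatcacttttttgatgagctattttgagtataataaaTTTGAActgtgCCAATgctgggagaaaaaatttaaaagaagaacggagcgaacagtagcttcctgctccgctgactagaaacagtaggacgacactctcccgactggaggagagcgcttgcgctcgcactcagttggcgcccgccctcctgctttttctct
NEK2: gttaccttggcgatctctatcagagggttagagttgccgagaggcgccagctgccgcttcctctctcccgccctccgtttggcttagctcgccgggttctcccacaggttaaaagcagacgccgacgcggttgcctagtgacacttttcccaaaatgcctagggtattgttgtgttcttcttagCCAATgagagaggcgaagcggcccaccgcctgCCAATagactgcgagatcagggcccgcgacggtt
Both strands were searched for the CHR letters TTTGAA, for their variant form TTCGAA and, as the NF-Y box, for CCAAT, and no match shared bases with a match to another motif. TTTGAA began 29 bases before the start of PLK1, 23 before BUB1B and 161 before CDK1, and was found in 3 of the 6 windows, against 15.4% of all 27305 windows in the table and 9.52% of the 8021 windows matched to genes tested. TTCGAA was found in the BUB1 window alone, at base 2 of the gene, against 1.45% of all windows and 1.71% of those of genes tested. CCAAT was found in 5 of the 6 windows, all but that of BUB1B, against 35.7% of all windows and 37.8% of those of genes tested. It began 73 bases before the start of PLK1, 150 before CDK1, and 66 and 34 before NEK2. BUB1 also had 2 matches, 79 bases before its start on the other strand and 54 bases before it on its own strand. These are matches of letters, with no measurement of binding.

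Summed FPKM ranged from 504363 to 557389 per library, and relative depth, read from the smallest values of rarely detected genes, down to 0.671 of the deepest library, with the absolute depth unknown. Lane 4 held the 24 h libraries and, at 6 h, replicate 1 of every dose, while lane 5 held the 12 h libraries and, at 6 h, replicate 2 of every dose. Deviations of each library from the mean library were correlated with gene length and GC content across genes (Spearman). Replicate 1 of the 12.5 µg/ml 6 h group stood apart by gene length (-0.60). Replicate 2 of the 25 µg/ml 24 h group stood apart by GC content (0.56). The lowest value for GC content was -0.37, in replicate 2 of the untreated 24 h group. T cell genes marked the culture as labelled: all 10 measured of 11 listed were above 1 FPKM, with CD3D between 508 and 652 FPKM. Of the B cell, myeloid, NK cell and epithelial or fibroblast markers only CD79A (33.4 to 48.1 FPKM) and NKG7 (median 5.07 FPKM) averaged 1 FPKM or more, and EPCAM and COL1A2 were listed at 0 in every library. The summed NK cell markers ranged from 5.25 to 6.36 FPKM at 25 µg/ml and from 3.87 to 7.63 FPKM in untreated cells, and the summed B cell markers from 38.1 to 41.3 FPKM and from 33.6 to 41.6 FPKM. Of the T cell genes CD28 was higher with 25 µg/ml at 24 h (0.24, limma adjusted p = 0.00576). TAL1 was lower in untreated cells at 24 h than at 6 h (-0.21, adjusted p = 0.0157). Both are named after their values were seen. NKG7 also moved in these comparisons. At 24 h it had 4.98 and 5.70 FPKM with 25 µg/ml, against 3.52 and 3.50 FPKM untreated (0.49, limma adjusted p = 0.0341), and in untreated cells it was lower at 24 h than at 6 h, where it had 5.68 and 6.996 FPKM (-0.70, adjusted p = 0.0271).

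In untreated cells CDK1 was the most abundant of the 10 messages and PKMYT1 the least. Over the 5 untreated libraries CDK1 averaged 163.9 ± 6.05 FPKM (SD), followed by PLK1 at 103.4 ± 5.28 and BUB1 at 100.01 ± 5.60, whose ranges overlapped. AURKB averaged 72.1 ± 1.56 FPKM, BUB1B 65.4 ± 2.16, AURKA 55.3 ± 2.95, TTK 47.8 ± 3.12, NEK2 43.1 ± 1.44, WEE1 43.1 ± 1.68 and PKMYT1 36.6 ± 3.86 (SD, n = 5 each). The ranges of AURKA and TTK overlapped, as did those of NEK2 and WEE1, and the other neighbours were separate. At 25 µg/ml the order differed at 1 place in the upper part: BUB1 (92.9 ± 3.91 FPKM) stood above PLK1 (76.7 ± 8.24 FPKM), with no overlap of the 6 libraries of each. The 10 messages together made up 0.116% to 0.132% of the summed FPKM at 25 µg/ml, 0.127% to 0.139% at 12.5 µg/ml and 0.138% to 0.148% in untreated cells.

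**Figure D1:**
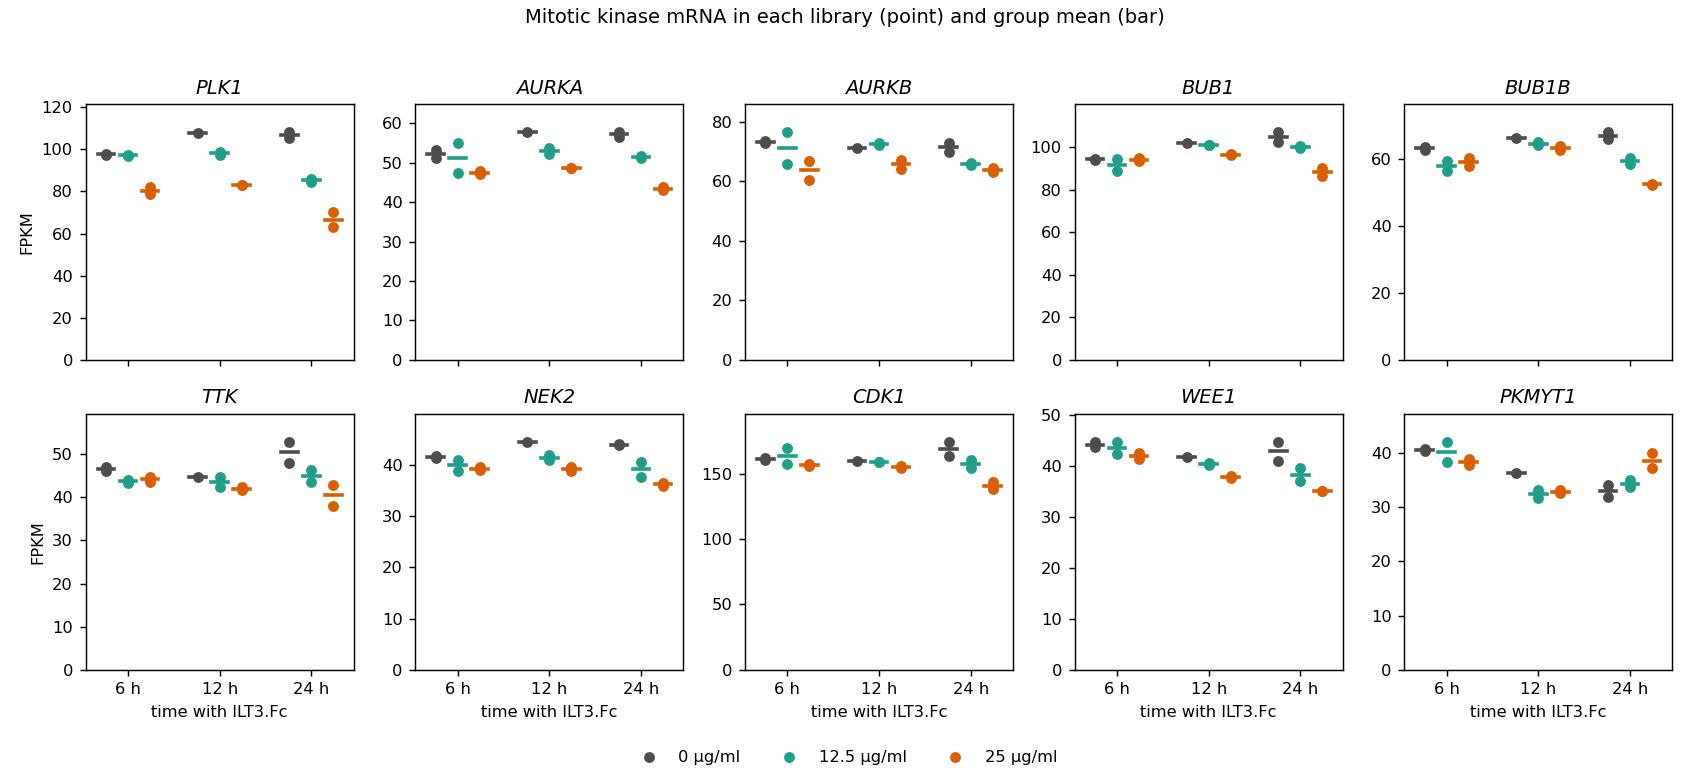
FPKM of each mitotic kinase in every library (points) with the group mean (bar), by time on the x axis and dose by colour. At 24 h the 25 µg/ml points lie below the untreated points for every gene except PKMYT1, where they lie above.

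The higher dose was compared with no ILT3.Fc over all times, as the mean of the differences at 6, 12 and 24 h. Of the 10 kinases 9 fell, none rose, and PKMYT1 did not pass the test. Lower calls made up 4.0% of all genes tested and higher calls 5.47%. PLK1 fell most, by 0.44 on the log2(FPKM + 1) scale (SE 0.028, limma adjusted p = 2.24e-05), and AURKA fell by 0.26 (SE 0.035, adjusted p = 0.00167). The other 7 fell by 0.11 to 0.18 on this scale. NEK2, BUB1B and WEE1 had adjusted p = 0.00222, 0.00182 and 0.00738. BUB1, TTK, CDK1 and AURKB lay nearer the threshold, at adjusted p = 0.0156, 0.0247, 0.026 and 0.0355. PKMYT1 stood at -0.001 (SE 0.033, adjusted p = 0.986). The median over the 10 was -0.16, beside 0.02 over all genes tested. In RNA from whole cultures, fewer cells in G2 and mitosis and less of each message per cell cannot be told apart.

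All calls but that of PLK1 were lost without the 24 h libraries, though AURKB stood at -0.16 with and without these libraries. Without them PLK1 still passed (-0.32, limma adjusted p = 0.00384), and the other 8 stood at -0.04 to -0.19 with adjusted p from 0.114 to 0.642. In lane 4 alone the 9 kinases stood at -0.13 to -0.46 and PLK1 and AURKA passed (adjusted p = 0.0414 and 0.0392). In lane 5 alone, which holds no 24 h library, they stood at -0.04 to -0.34 and none passed, PLK1 included (adjusted p = 0.0732). PKMYT1 was at 0.06 in lane 4 and -0.10 in lane 5. BUB1 also missed the threshold with quantile normalization, additive dose and time, the replicate block or without the 12 h libraries (-0.10 to -0.12, adjusted p = 0.0565 to 0.0754). CDK1 missed it with the first 3 of these settings (-0.08 to -0.12, adjusted p = 0.0527 to 0.078), TTK with the block or without 12 h (adjusted p = 0.088 and 0.0528), and AURKB with no filter on low values or without 12 h (adjusted p = 0.0609 and 0.09). AURKB lost its call when any 1 library was left out except replicate 1 or 2 of 12.5 µg/ml at 6 h, replicate 1 of 25 µg/ml at 6 h and the untreated 12 h library (-0.13 to -0.17, adjusted p = 0.0513 to 0.0906). TTK lost it without replicate 2 of the untreated 24 h group or any single library of the 25 µg/ml 6 h, untreated 6 h or 25 µg/ml 12 h groups (-0.14 to -0.16, adjusted p = 0.0512 to 0.065). CDK1 lost it without any of those same libraries or replicate 2 of 25 µg/ml at 24 h (-0.10 to -0.12, adjusted p = 0.056 to 0.0671).

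PLK1, the polo-like kinase that drives mitotic entry and centrosome maturation, gave the largest differences at every time. At 24 h it had 63.0 and 70.3 FPKM with 25 µg/ml, against 108.3 and 105.4 FPKM untreated, or 62.4% of the untreated mean. At 12 h it had 82.9 and 83.2 FPKM with 25 µg/ml, against 107.6 FPKM in the 1 untreated library. At 6 h it had 82.0 and 78.9 FPKM with 25 µg/ml, against 98.0 and 97.4 FPKM untreated. The 25 µg/ml libraries were thus the low ones at all 3 times, with no overlap. The difference was -0.68 at 24 h (SE 0.045, limma adjusted p = 3.67e-05), -0.37 at 12 h (SE 0.055, adjusted p = 0.0528) and -0.28 at 6 h (SE 0.045, adjusted p = 0.0423). An annotated antisense RNA and ERN2 overlap PLK1 on the other strand, and strand use in the counting is not given in the sources used here. ERN2 had at most 0.0143 FPKM.

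AURKA, the centrosomal Aurora kinase that activates PLK1, followed the same order at a smaller size. At 24 h it had 43.7 and 43.1 FPKM with 25 µg/ml, against 56.6 and 57.9 FPKM untreated, and at 12 h 48.6 and 48.6 FPKM, against 57.8 FPKM. At 6 h it had 47.0 and 47.9 FPKM with 25 µg/ml, against 53.3 and 51.2 FPKM untreated. The groups did not overlap at any time, and the test passed at 24 h (-0.39, SE 0.055, limma adjusted p = 0.00162) and missed at 12 h (-0.24, adjusted p = 0.295) and 6 h (-0.14, adjusted p = 0.433). AURKB, the catalytic subunit of the chromosomal passenger complex, had 63.2 and 64.6 FPKM with 25 µg/ml at 24 h, against 69.9 and 73.0 FPKM untreated. At 12 h it had 64.3 and 67.1 FPKM with 25 µg/ml, against 71.1 FPKM untreated, and at 6 h 67.0 and 60.4 FPKM with 25 µg/ml, against 72.9 and 73.6 FPKM untreated. The groups were separate at each time, yet AURKB was the 1 member that missed the threshold at 24 h in the lower direction (-0.16, SE 0.065, adjusted p = 0.122). NEK2, a kinase that helps centrosomes part, had 36.4 and 36.0 FPKM with 25 µg/ml at 24 h, against 43.9 and 44.0 FPKM untreated. Its duplicates lay close together there, and it fell by 0.27 at 24 h (SE 0.040, adjusted p = 0.00211). Processed pseudogenes of AURKA, BUB1 and NEK2 are annotated but have no line of their own in the table, so reads they share could not be followed.

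The 3 checkpoint kinases fell at 24 h and did not pass the test at 6 h. BUB1, which marks centromeres by phosphorylating histone H2A, had 90.2 and 86.4 FPKM with 25 µg/ml at 24 h, against 102.5 and 107.1 FPKM untreated. At 6 h BUB1 had 93.4 and 94.7 FPKM with 25 µg/ml, against 94.5 and 94.1 FPKM untreated, and these overlapped. It fell by 0.25 at 24 h (SE 0.037, limma adjusted p = 0.00237) and stood at -0.004 at 6 h (SE 0.037, adjusted p = 0.985). BUB1B, whose product BUBR1 sits in the complex that inhibits anaphase onset, had 52.7 and 52.3 FPKM with 25 µg/ml at 24 h, against 65.9 and 68.2 FPKM untreated. It had 58.0 and 60.3 FPKM at 6 h, against 62.8 and 63.7 FPKM untreated. After PLK1 and AURKA, BUB1B had the largest fall at 24 h (-0.35, SE 0.037, adjusted p = 0.000401). It shares exons with a read-through transcript to PAK6, which itself averaged 0.343 FPKM. TTK, also called MPS1, the kinase at the head of checkpoint signalling, had 42.8 and 38.1 FPKM with 25 µg/ml at 24 h, against 48.1 and 52.9 FPKM untreated. TTK duplicates were spread more widely than those of BUB1B, and it fell by 0.31 (SE 0.060, adjusted p = 0.00703). Without replicate 2 of the untreated 24 h group or replicate 2 of 25 µg/ml at 24 h, TTK stood at -0.25 and -0.23 and lost the call (adjusted p = 0.0616 to 0.0754).

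CDK1 and its 2 inhibitory kinases did not move alike. CDK1 had 143.2 and 138.0 FPKM with 25 µg/ml at 24 h, against 163.5 and 174.4 FPKM untreated, and fell by 0.26 (SE 0.043, limma adjusted p = 0.00355). At 6 h it had 156.0 and 157.4 FPKM, against 160.7 and 161.6 FPKM untreated, which did not overlap but the difference was -0.04 on the log2 scale (adjusted p = 0.818). WEE1, the nuclear kinase that phosphorylates CDK1, had 35.1 FPKM in both 25 µg/ml libraries at 24 h, against 41.0 and 44.7 FPKM untreated, and fell by 0.28 (SE 0.047, adjusted p = 0.00392). PKMYT1, the membrane-bound kinase with the same target, was the 1 member that rose. It had 37.1 and 39.9 FPKM with 25 µg/ml at 24 h, against 34.0 and 31.8 FPKM untreated, a rise of 0.22 (SE 0.053, adjusted p = 0.019). At 12 h PKMYT1 was the other way round, at 32.5 and 33.1 FPKM with 25 µg/ml, against 36.3 FPKM untreated (-0.14, adjusted p = 0.575). At 6 h it had 37.7 and 38.8 FPKM, against 40.7 and 40.3 FPKM untreated (-0.08, adjusted p = 0.669).

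The PKMYT1 rise depended on the processing. PKMYT1 has a GC content of 66.2%, higher than 97.9% of the genes tested. At 24 h replicate 2 of both groups deviated with GC content, in opposite directions. Its Spearman correlation across genes was 0.56 at 25 µg/ml and -0.37 in untreated cells. After each library was corrected for GC content and gene length, the 24 h difference was 0.04 (limma adjusted p = 0.415). With libraries centred on their medians it was 0.18 (adjusted p = 0.0531), and without replicate 2 of either the 25 µg/ml or the untreated 24 h group it was 0.17 (adjusted p = 0.15 to 0.152). PAQR4 overlaps the exons of PKMYT1 on the other strand at 14.6 to 19.5 FPKM, so reads of both may mix. PAQR4 itself stood at -0.04 at 24 h (adjusted p = 0.68), and over all times it was lower with 25 µg/ml (-0.14, adjusted p = 0.0403). Of the 8 kinases that fell at 24 h, CDK1, WEE1, TTK, NEK2, BUB1 and BUB1B had higher GC content than 5.3%, 8.1%, 20.4%, 25.4%, 28.3% and 31.6% of genes tested. AURKA exceeded 44.2% and PLK1 77.7%. Over 29 alternatives, the GC correction among them, the smallest of these falls was that of CDK1, at -0.20. The part of GC content in these falls was not tested.

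At 24 h, then, 8 kinases fell, 1 rose and AURKB did not pass. Lower calls made up 5.76% of all genes tested and higher calls 10.7%. Over 29 alternatives AURKB ranged from -0.23 to -0.13 and passed in 5, while 8 ended the PKMYT1 call. The NK cell marker NKG7 (0.49) and the T cell gene CD28 (0.24) were also higher with 25 µg/ml at 24 h. The part of NKG7 and CD28 in these differences was not tested. The median over the 10 was -0.28, beside 0.04 over all genes tested. Every 25 µg/ml library lay below every untreated one for 9 members, against 23.1% of genes tested, and above for PKMYT1, against 37.5% of genes tested. At 12 h none passed, with lower calls at 0.0166% of genes tested. Unadjusted, 5 members had p under 0.05 at 12 h, beside 1034 of the 12015 genes tested. Both 25 µg/ml libraries lay below the single untreated one for all 10, against 32.7% of genes tested. At 6 h PLK1 alone passed, with lower calls at 0.166% of genes tested. The libraries were separate and lower for 9 members at 6 h, all but BUB1, against 25.9% of genes tested. The PLK1 call at 6 h was lost with any 1 library left out except the pairs of 25 µg/ml at 24 h and 12.5 µg/ml at 6 h and the untreated 12 h library (-0.25 to -0.30, limma adjusted p = 0.0756 to 0.375). Fitted on the 0 and 25 µg/ml 24 h groups alone, with no spread borrowed from other groups, none of the 10 passed (adjusted p = 0.0727 for PLK1).

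**Figure D2:**
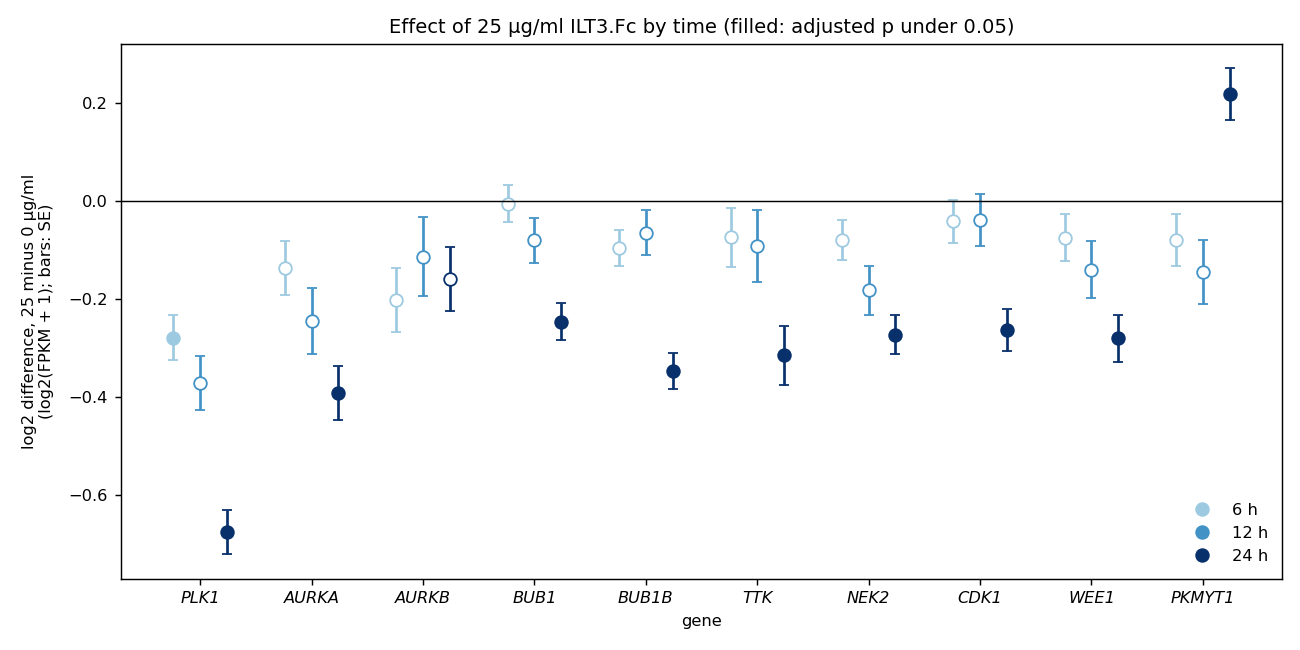
Difference on the log2(FPKM + 1) scale between 25 and 0 µg/ml for each kinase at 6, 12 and 24 h (points, with bars for 1 SE), filled where the adjusted p was under 0.05. PLK1 lies lowest at each time, reaching -0.68 at 24 h, and PKMYT1 at 24 h is the 1 filled point above 0.

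Whether the effect differed between times was tested as the 24 h difference minus the 6 h difference. It was larger at 24 h, in the lower direction, for PLK1 (-0.40, SE 0.064, limma adjusted p = 0.0166), BUB1B (-0.25, SE 0.052, adjusted p = 0.0331) and BUB1 (-0.24, SE 0.053, adjusted p = 0.0376), and calls in that direction made up 0.949% of genes tested. AURKA, TTK, CDK1, WEE1 and NEK2 stood at -0.19 to -0.25 and missed the threshold (adjusted p = 0.0734 to 0.134). AURKB stood at 0.04 (SE 0.092, adjusted p = 0.827) and PKMYT1 at 0.30 (SE 0.075, adjusted p = 0.0584). In lane 4 alone, where 6 and 24 h can be compared within 1 lane, the values were -0.42 for PLK1 and -0.23 for both BUB1 and BUB1B, with adjusted p = 0.326 for PLK1 and 0.332 for the other pair.

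In untreated cells the same times were compared to see what moved without ILT3.Fc. At 24 h PKMYT1 fell by 0.29 relative to 6 h (SE 0.053, limma adjusted p = 0.0204), with 34.0 and 31.8 FPKM at 24 h against 40.7 and 40.3 FPKM at 6 h, where lower calls made up 1.77% of genes tested. It was the 1 member called. The call was lost without any 1 of those 4 libraries (-0.24 to -0.34, adjusted p = 0.064 to 0.152), and in lane 4 alone the value was -0.30 (adjusted p = 0.282). Over 29 alternatives PKMYT1 ranged from -0.34 to -0.18, and 8 of them ended its call. Replicate 2 of the untreated 24 h group, which deviated with GC content (-0.37), is among the libraries of this comparison. PAQR4, which overlaps PKMYT1 on the other strand, stood at -0.22 in the same comparison (adjusted p = 0.087). The part of PAQR4 reads in the PKMYT1 value was not tested. NKG7 (-0.70) and TAL1 (-0.21) were also lower at 24 h. BUB1 went the other way, with 102.5 and 107.1 FPKM at 24 h against 94.5 and 94.1 FPKM at 6 h, and missed the threshold (0.15, SE 0.037, adjusted p = 0.06). The other 8 stood between -0.04 and 0.13 with adjusted p from 0.159 to 0.833.

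The lower dose gave values below 0 that were smaller than those of the higher dose for 9 members, while PKMYT1 stood at -0.04 with 12.5 µg/ml and -0.001 with 25 µg/ml. All 10 members were below 0 for 12.5 against 0 µg/ml over all times, as were 5579 of the 12015 genes tested. The median of the 10 was -0.09, beside 0.01 over all genes tested. None passed, where lower calls made up 0.117% of genes tested. Unadjusted, 6 of the 10 had p under 0.05, beside 1315 of the 12015 genes tested. PLK1 was nearest (-0.15, SE 0.028, limma adjusted p = 0.0636), then BUB1B (-0.11, adjusted p = 0.0937) and NEK2 (-0.11, adjusted p = 0.127). Between 25 and 12.5 µg/ml PLK1 alone passed, lower by 0.29 at 25 µg/ml (SE 0.026, adjusted p = 0.00175), where lower calls made up 0.216% of genes tested. This PLK1 call was lost in lane 4 alone, in lane 5 alone, in the model of additive dose and time and without the 12 h libraries. AURKA stood at -0.15 for that step (SE 0.032, adjusted p = 0.106) and PKMYT1 at 0.04 (SE 0.031, adjusted p = 0.635). Both doses were set against the same untreated libraries, so the 2 columns of values are not independent.

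PLK1 at 24 h shows the steps of dose most plainly. It had 108.3 and 105.4 FPKM at 0 µg/ml, 86.1 and 84.5 FPKM at 12.5 µg/ml and 63.0 and 70.3 FPKM at 25 µg/ml, with no overlap between doses. AURKA had 56.6 and 57.9, then 51.1 and 51.8, then 43.7 and 43.1 FPKM over the same doses. At 6 h PLK1 had 96.8 and 97.5 FPKM at 12.5 µg/ml, overlapping the untreated 98.0 and 97.4 FPKM. Group means fell in order of dose for 9 members at 24 h, all but PKMYT1, against 23.0% of genes tested. They did so for 8 members at 12 h, against 21.7%, and for 6 at 6 h, against 15.4%.

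Across the 17 libraries the members shared much of their variation, as a description only, since the libraries share doses and lanes. The Pearson correlation of a member with the mean of the other 9 ranged from 0.60 for BUB1 to 0.92 for PLK1, and was -0.30 for PKMYT1. PLK1 was closest to NEK2 (0.89) and AURKA (0.89), and BUB1 and PKMYT1 were the most opposed pair (-0.77). Outside the 10, the genes with profiles most like their mean over the 17 libraries were HMMR (0.98), ARL6IP1 (0.98), TPX2 (0.96), KIF23 (0.96) and CCNB1 (0.96). HMMR encodes a spindle-associated hyaluronan receptor, ARL6IP1 a membrane protein of the endoplasmic reticulum, TPX2 a spindle protein that binds and activates Aurora A, KIF23 a kinesin of cytokinesis and CCNB1 cyclin B1. HMMR had 35.2 and 30.9 FPKM with 25 µg/ml at 24 h, against 56.7 and 59.5 FPKM untreated, a deeper fall than that of PLK1 in these libraries (56.9% of the untreated mean, beside 62.4%).

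The partners of the 10 kinases were then read in the same comparison, 25 against 0 µg/ml over all times, where lower calls made up 4.0% of all genes tested and higher calls 5.47%. Of 7 activators and partners tested, 4 fell, none rose and the median was -0.14. FAM83D, which brings casein kinase 1 to the spindle, fell by 0.32 (limma adjusted p = 0.00019). TPX2 fell by 0.23 (adjusted p = 0.000121), BORA, the Aurora A cofactor, by 0.16 (adjusted p = 0.00775) and CDCA8, a subunit of the Aurora B complex, by 0.13 (adjusted p = 0.0251). CDCA8 lost its call without replicate 1 of the untreated 24 h group, either untreated 6 h library, replicate 2 of 25 µg/ml at 6 h, the untreated 12 h library or either 25 µg/ml 12 h library (-0.12 to -0.13, adjusted p = 0.0521 to 0.0696), and also without the 12 h libraries (adjusted p = 0.0727). All 4 missed the threshold in lane 4 alone, in lane 5 alone and without the 24 h libraries, where BORA stood at -0.24, -0.03 and -0.04 (adjusted p = 0.15, 0.688 and 0.606) and TPX2 at -0.25, -0.16 and -0.16 (adjusted p = 0.0516, 0.137 and 0.0507). Of 8 mitotic cyclins, CKS proteins and CDC25 phosphatases, 3 fell, none rose and the median was -0.13. The 3 were the cyclins CCNB2 (-0.38, adjusted p = 0.000334), CCNB1 (-0.30, adjusted p = 0.000508) and CCNA2 (-0.20, adjusted p = 0.00142). CKS2, a small subunit that binds CDK1, missed (-0.13, adjusted p = 0.11). The 3 cyclins missed in lane 5 alone and without 24 h (CCNB2 -0.28 and -0.22, CCNB1 -0.20 and -0.18, CCNA2 -0.13 and -0.12, adjusted p = 0.115 to 0.147), and CCNA2 also in lane 4 alone (adjusted p = 0.135). CCNB1 had 127.0 and 122.5 FPKM with 25 µg/ml at 24 h, against 179.2 and 184.1 FPKM untreated.

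Of 13 spindle checkpoint partners, 2 fell, none rose and the median was -0.09, beside lower calls at 4.0% of all genes tested. CDC20, the activator of the anaphase promoting complex on which the checkpoint acts, fell by 0.36 (limma adjusted p = 0.000167), and NDC80, a kinetochore protein that binds microtubules, by 0.28 (adjusted p = 0.00052). Both missed in lane 5 alone (-0.29 and -0.13, adjusted p = 0.101 and 0.175), and NDC80 also without 24 h (-0.16, adjusted p = 0.162). ZWINT and MAD2L1 missed (-0.10 each, adjusted p = 0.0835 and 0.0989). Of 13 genes of the anaphase promoting complex and SCF ubiquitin ligases, 2 fell, none rose and the median was 0.00. Both that fell encode ubiquitin-conjugating enzymes that work with the complex, UBE2C (-0.32, adjusted p = 0.00181) and UBE2S (-0.25, adjusted p = 0.0355). Both missed in lane 5 alone (-0.27 and -0.35, adjusted p = 0.137 and 0.12) and without 24 h (-0.29 and -0.27, adjusted p = 0.123 and 0.233), and UBE2S also in lane 4 alone, with no filter, without 12 h or with the replicate block (adjusted p = 0.0683 to 0.223). UBE2S lost its call without any 1 library except replicate 2 of 25 µg/ml at 24 h, replicate 1 of 25 µg/ml at 6 h, the 12.5 µg/ml 6 h pair and the untreated 12 h library (-0.21 to -0.26, adjusted p = 0.0517 to 0.0918). FBXO5, an inhibitor of the complex, and ANAPC1, its largest subunit, missed (-0.11 and -0.14, adjusted p = 0.0918 and 0.13).

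The remaining lists held few calls, where lower calls made up 4.0% of all genes tested. Of 10 mitotic phosphatase genes and their inhibitors none passed and the median was -0.02. Unadjusted, 2 of the 10 had p under 0.05, beside 3116 of the 12015 genes tested. PPP2CA, a catalytic subunit of PP2A, stood at -0.08 (limma adjusted p = 0.0749) and PPP1CC at -0.07 (adjusted p = 0.134). ENSA stood at 0.04 (adjusted p = 0.519) and ARPP19 at -0.04 (adjusted p = 0.627). Of 19 other cell cycle kinases tested, 2 fell, none rose and the median was 0.00. CHEK2, the DNA damage checkpoint kinase, fell by 0.22 (adjusted p = 0.00182) and NEK9, which acts upstream of NEK7, by 0.14 (adjusted p = 0.0285). Both missed in each lane alone and without 24 h (-0.13 to -0.23, adjusted p = 0.111 to 0.298). NEK7 and VRK1 missed (-0.12 and -0.11, adjusted p = 0.0508 and 0.0613). NEK9 lost its call without either untreated 24 h library, replicate 2 of 25 µg/ml at 24 h, either 25 µg/ml 6 h library, replicate 2 of the untreated 6 h group or replicate 1 of 25 µg/ml at 12 h (-0.12 to -0.14, adjusted p = 0.0549 to 0.0778). Of 12 transcription factors of G2/M genes, 1 fell, none rose and the median was -0.004. NFYB, a subunit of NF-Y, stood at -0.12 (adjusted p = 0.0373), and NFYA, another subunit, missed with the opposite sign (0.09, adjusted p = 0.0503). NFYB lost its call without any 1 library except the pair of 12.5 µg/ml at 6 h, the untreated 12 h library, replicate 1 of 25 µg/ml at 24 h and replicate 1 of 25 µg/ml at 12 h (-0.10 to -0.13, adjusted p = 0.0532 to 0.0993). It also missed in each lane alone, with additive dose and time, with the replicate block with or without GC correction, and without 24 h, where it stood at -0.02 (adjusted p = 0.903), so that 18 of 33 alternatives ended the call. LIN37 and LIN52, subunits of MuvB, missed (0.14 and 0.05, adjusted p = 0.251 and 0.33). Of the 10 T cell genes tested none fell and 1 rose, CD28 (0.14, adjusted p = 0.0103), a costimulatory receptor named here after its value was seen.

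**Figure D3:**
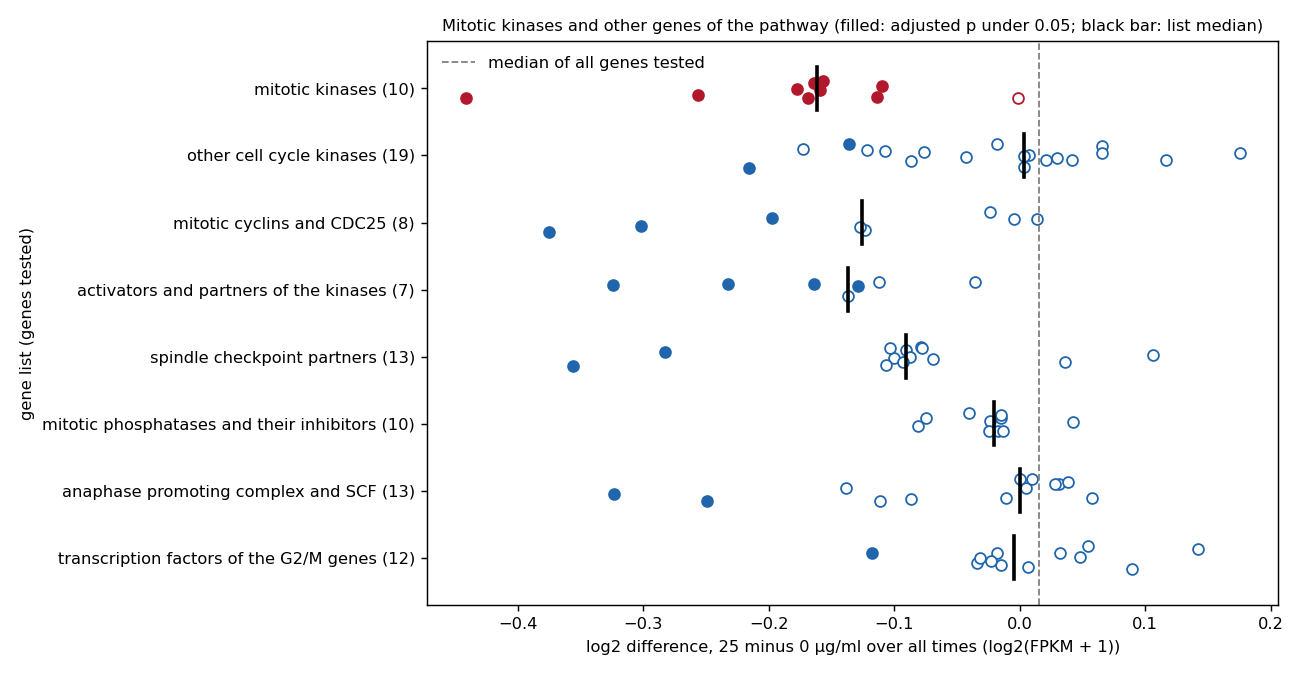
Difference between 25 and 0 µg/ml over all times on the log2(FPKM + 1) scale for each tested gene of the mitotic kinases and 7 related lists (points, filled where the adjusted p was under 0.05), with each list's median as a black bar. The kinases' median is -0.16, and the dashed line marks 0.02, the median of all genes tested.

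**Figure D4:**
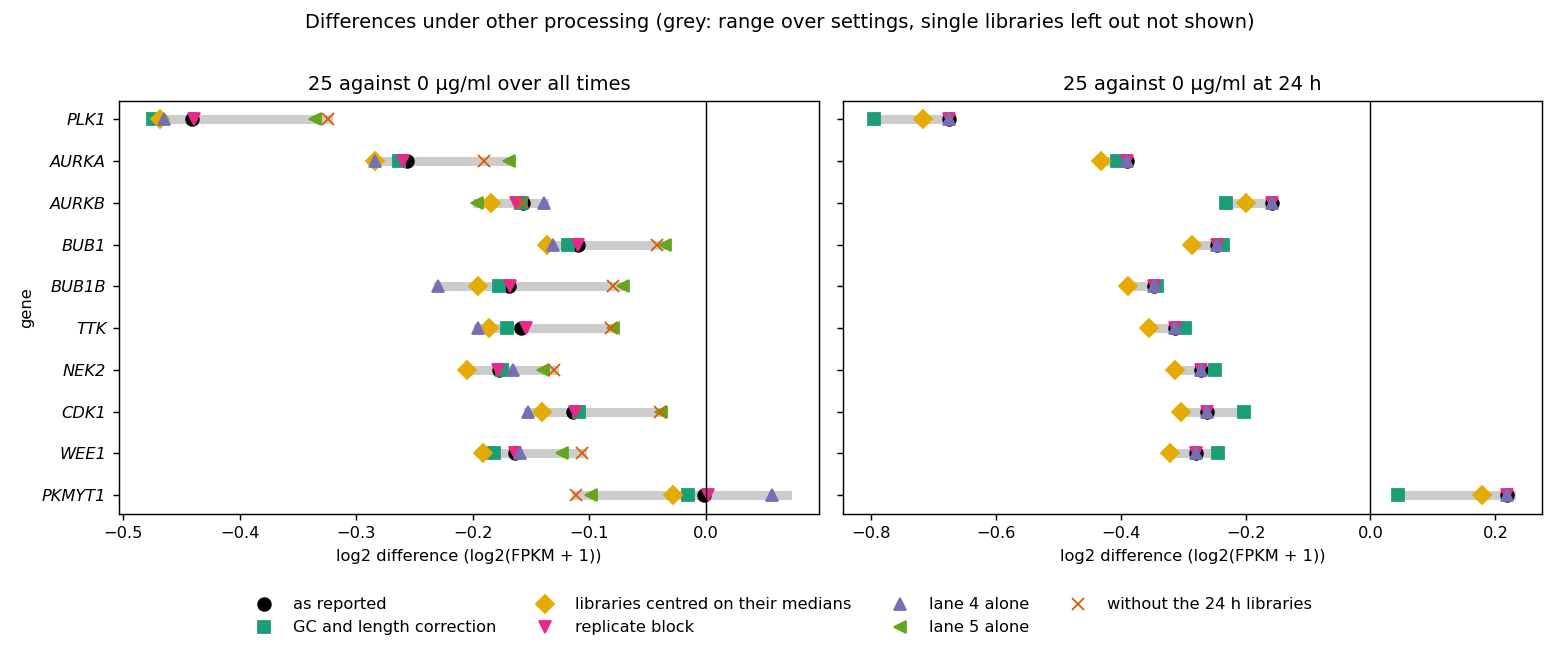
Differences on the log2(FPKM + 1) scale for each kinase, over all times (left) and at 24 h (right), as reported and under other processing (symbols), with grey bars for the range. Without the 24 h libraries PLK1 stands at -0.32 and CDK1 and BUB1 at -0.04, and the GC and length correction takes PKMYT1 at 24 h to 0.04.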

How the data were processed

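The series holds 17 RNA-seq libraries of polyadenylated RNA, made with a TruSeq RNA kit per the labels' protocols. The authors deposited 1 table of FPKM values with a column for each library. TopHat2 2.1.0 is listed in the submitters' processing notes. Neither a quantifier nor a build or annotation is given in the sources used here. Of 25593 lines, 45 repeated symbols were reduced to the line with the highest mean, which left 25548 symbols. FPKM keeps no counts, so the depth is unknown beyond relative depth and no interval from counting is given.

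Tests covered the 12015 genes whose mean reached 1 FPKM, on log2(FPKM + 1), where changes of low values come out too small. The 9 dose and time groups each had their own mean in limma 3.58.1 (R 4.3.3; 8 residual and 3 prior degrees of freedom, variance trend). The lone untreated 12 h library is thereby taken to vary as the rest do. All tests are two-sided, with Benjamini-Hochberg adjustment over all genes tested and calls at an adjusted p under 0.05. The procedure was tested on simulated data with independent noise in each gene and no lane, GC or length effects.

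The 10 members and all gene lists were chosen with earlier results of these data known. The text names all members, up to 4 genes of each list with the smallest p for 25 against 0 µg/ml over all times, and the 5 genes most correlated with the members. Alternatives changed the pseudocount (0.1), the filter (none, or a mean FPKM of 5), the normalization (median centring, quantile, or a loess correction of span 0.3 for GC content and length from GENCODE 29, matched for 93.2% of genes tested), the variance trend, the model (lane as a covariate, each lane alone, only the groups compared, additive dose and time, replicate block) and the libraries used (without 12 h, without 24 h, without each library). Promoter windows came from RefSeq on GRCh38.p14.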

Additional observations from a re-analysis of the deposited data

Results flagged for a closer look

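The effect of 25 against 0 µg/ml differed between 24 and 6 h for 3 members, by limma's test of the difference between the 2 effects. For PLK1 the 24 h effect minus the 6 h effect was -0.397 (adjusted p = 0.0166), from effects of -0.68 at 24 h and -0.28 at 6 h. It missed the threshold without replicate 2 of the untreated 24 h group, either 25 µg/ml 6 h library or either untreated 6 h library (-0.37 to -0.42, adjusted p = 0.0563 to 0.0683). For BUB1B it was -0.251 (adjusted p = 0.0331), from -0.35 at 24 h and -0.10 at 6 h. It missed without replicate 2 of 25 µg/ml or of the untreated group at 24 h, or any 1 of the 25 µg/ml 6 h, untreated 6 h, 25 µg/ml 12 h and 12.5 µg/ml 12 h libraries (-0.22 to -0.28, adjusted p = 0.0551 to 0.139). For BUB1 it was -0.241 (adjusted p = 0.0376), from -0.25 at 24 h and -0.004 at 6 h. It missed without any of the libraries named for BUB1B or either 12.5 µg/ml 24 h library (-0.21 to -0.25, adjusted p = 0.0551 to 0.156). The 24 h libraries all ran in lane 4 and the 6 h libraries in both lanes. Within lane 4 the 3 values were -0.42, -0.23 and -0.23 and none passed.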

How the results depend on the processing

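No called value changed sign under any alternative run. For 25 against 0 µg/ml over all times 9 members were called as reported, 2 in lane 4 alone, 0 in lane 5 alone and 1 without the 24 h libraries, and 6 to 9 with 1 library left out. For 12.5 against 0 µg/ml (0 as reported) quantile normalization gave 1, GC and length correction 3 and that correction with the replicate block 1, and single omissions 0 to 3. For 25 against 12.5 µg/ml (1 as reported) the correction gave 4, and lane 4 alone, lane 5 alone, additive dose and time and leaving out 12 h gave 0, and single omissions 1 to 4. At 6 h (1 as reported) no filter, quantile normalization, no variance trend, lane as a covariate, each lane alone, only the groups compared and the replicate block gave 0, and single omissions 0 to 1. At 12 h (0 as reported) no filter, a mean FPKM of 5, median centring, quantile normalization and the correction with and without the block gave 1, and single omissions 0 to 2. At 24 h (9 as reported) only the groups compared gave 0, and single omissions 7 to 10. For the 24 h effect minus the 6 h effect (3 as reported) no variance trend gave 1, lane 4 alone, only the groups compared and the replicate block gave 0, and single omissions 0 to 7. For untreated 24 against 6 h (1 as reported) median centring gave 2, the correction 4, and lane 4 alone, only the groups compared and the block with or without the correction gave 0, and single omissions 0 to 3. The lane and omission fits had fewer libraries, and the cause of these shifts was not tested.

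Over all genes tested, 25 against 0 µg/ml over all times called 1138 as reported, 8 to 1947 under other settings and 613 to 2034 with 1 library left out, and at 24 h 1978, 12 to 2111 and 483 to 3071. For 12.5 against 0 µg/ml the counts were 34, 2 to 212 and 4 to 895, for 25 against 12.5 µg/ml 34, 2 to 168 and 9 to 1474, at 6 h 27, 0 to 105 and 3 to 93, and at 12 h 6, 4 to 66 and 4 to 39. The 24 h effect minus the 6 h effect gave 396, 0 to 412 and 5 to 1162, and untreated 24 against 6 h 280, 0 to 1007 and 8 to 796.

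Differences of replicate 2 minus replicate 1 were correlated across genes between groups of the same time, at -0.18 to 0.03. These values show no large shift shared by replicate number. They cannot tell whether the libraries were paired, which the labels do not say, and at 6 h the numbers follow the lanes. With the replicate block 6 members were called over all times, without BUB1, TTK and CDK1 (adjusted p = 0.0604, 0.088 and 0.078), and 8 at 24 h, without PKMYT1 (0.22, adjusted p = 0.0539). The absolute depth is unknown, so the precision of each FPKM value cannot be given.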
